A study of Mus musculus with 18 samples.

Results

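The Cyp2c genes examined here are 10 mouse cytochrome P450 genes chosen by symbol: Cyp2c29, Cyp2c37, Cyp2c38, Cyp2c39, Cyp2c40, Cyp2c44, Cyp2c50, Cyp2c54, Cyp2c69 and Cyp2c70. Of these symbols, 9 had a row among the 19057 symbols of the liver expression table. Cyp2c44 had no row under that name, and RefSeq lists it as an older name of Cyp2c23, which had one. Cyp2c23 is therefore given beside the members, together with the other Cyp2c genes of the table (Cyp2c55, Cyp2c65, Cyp2c66, Cyp2c67 and Cyp2c68), so that 15 Cyp2c rows were read in all.

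Cytochrome P450 enzymes of the 2C subfamily sit in the endoplasmic reticulum of hepatocytes, where they oxidise drugs, arachidonic and linoleic acid, retinoids and bile acids. They take their electrons from a reductase (Por), and the nuclear receptors CAR and PXR, together with the liver factor HNF4A, are known to act on several of them. In mouse liver the levels of several Cyp2c genes also depend on the secretion pattern of growth hormone, which differs between the sexes.

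Livers of male ICR mice, an outbred stock, were taken at 10 weeks of age, and their poly(A) RNA was sequenced. The study was mainly about sperm production after transplantation of gut microbiota, with the liver as a further readout, in mice given streptozotocin (STZ), a toxin of pancreatic beta cells that gives a model of type 1 diabetes. There were 6 groups of 3 libraries. Con was the control without STZ, and STZ had a single injection of the toxin. A10-FMT had STZ and then faecal microbiota transplantation (FMT) from donors that had taken alginate oligosaccharide (AOS), a seaweed sugar, at 10 mg/kg. Con-FMT had STZ and then microbiota from control donors, AOS had 10 mg/kg of AOS without STZ, and STZ+AOS had both agents. By the study's methods, the transplants were pooled small intestine contents given by mouth, and AOS and STZ+AOS livers occur only in the sample labels. The labels number the libraries 1 to 3 within a group, and each is called a mouse here although they name no animal, so p-values measure the spread between these libraries.

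Values are RPKM, that is reads scaled by transcript length and by the mapped reads of the library, which allows levels of different genes to be set side by side. The RPKM of all genes summed to 749557 to 806937 in Con, 631126 to 684659 in STZ and 621121 to 642433 in STZ+AOS, and each of the 18 libraries had 9955 to 10409 genes at 1 RPKM or more. Read depth is unknown, and relative depths between libraries, read from the step sizes of 21 low genes, were 0.929 to 1.06. The 6 hepatocyte markers were abundant in every library, as the label of liver calls for. Their sums were 46780 to 66540 RPKM in Con, 56680 to 62660 in AOS and 50520 to 56780 in A10-FMT. They were lower in STZ+AOS (35390 to 45570, wholly below AOS), Con-FMT (39050 to 51600) and STZ (39390 to 48380). The single markers did not move together in STZ against Con. On the log2(RPKM + 1) scale Cps1 (1.37) and Tat (1.27) rose and Alb differed little (-0.008). Apoa1 (-0.70), Ttr (-0.92) and Serpina1c (-2.585) fell. Sums of markers of some other cells moved too. The 5 stellate cell markers summed to 67.4 to 78.3 RPKM in Con, 105.6 to 125.2 in STZ and 129 to 149.5 in STZ+AOS. The 6 Kupffer cell markers summed to 45.9 to 62.2, 63.8 to 155.6 and 76.3 to 105.4 RPKM in these groups. The 5 endothelial cell markers summed to 12.85 to 16.09 RPKM in Con and 17.51 to 28.43 in STZ, and to 15.42 to 18.86 in AOS and 19.98 to 35.97 in STZ+AOS. The single markers of these cells moved unevenly in STZ against Con. Of the stellate markers, Dcn rose (0.7188, limma adjusted p = 0.01785). The adjusted p was 0.214 or more for Lrat (0.3383), Reln (0.1228), Des (0.06956) and Col1a1 (-0.07501). Of the Kupffer markers, Marco rose most (2.794, adjusted p = 0.009355). The others were all higher as well, by 0.4299 to 0.5695, without being called (adjusted p of 0.1406 or more). Of the endothelial markers, Kdr (0.6373, limma adjusted p = 0.01126) and Pecam1 (0.5446, adjusted p = 0.02707) rose. Cdh5 (0.5114), Lyve1 (0.4969) and Stab2 (0.234) were higher without being called (adjusted p of 0.06208 or more). The 4 erythroid markers reached 9166 RPKM in Con-FMT, against at most 2862 elsewhere, and the 4 pancreatic acinar markers 16.4 RPKM in 1 STZ+AOS library against at most 0.35 elsewhere. In such bulk samples, fewer cells of a type and less RNA per cell cannot be told apart, and the part of these cells in the results was not tested.

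In the GRCm38 build, the members with a row lie on chromosome 19 within about 1 megabase, from Cyp2c29 (chr19:39269405-39330713, plus strand) past Cyp2c38 (chr19:39389556-39463075, minus), Cyp2c39 (chr19:39510862-39568529, plus), Cyp2c40 (chr19:39767071-39812814, minus), Cyp2c69 (chr19:39842814-39886799, minus), Cyp2c37 (chr19:39992424-40012243, plus), Cyp2c54 (chr19:40037940-40073827, minus) and Cyp2c50 (chr19:40089688-40113950, plus) to Cyp2c70 (chr19:40153353-40187333, minus). Cyp2c67 and Cyp2c68 lie between Cyp2c39 and Cyp2c40, while Cyp2c23 stands apart (chr19:44005022-44029208, minus).

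How alike these genes are decides how well their reads can be told apart, and it is shown here by the 60 coding bases around the haem-binding cysteine, the conserved signature of P450 enzymes. They are coding bases 1267 to 1326 of each gene counted from the start codon, except 1354 to 1413 in Cyp2c40 and 1264 to 1323 in Cyp2c70. Capitals mark the bases that differ from Cyp2c29.
Cyp2c29: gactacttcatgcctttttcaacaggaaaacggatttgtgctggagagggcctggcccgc
Cyp2c38: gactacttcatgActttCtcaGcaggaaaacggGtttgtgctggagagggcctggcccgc
Cyp2c39: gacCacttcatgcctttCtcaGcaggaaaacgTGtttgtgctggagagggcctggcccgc
Cyp2c40: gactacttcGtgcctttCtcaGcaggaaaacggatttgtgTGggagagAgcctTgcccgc
Cyp2c69: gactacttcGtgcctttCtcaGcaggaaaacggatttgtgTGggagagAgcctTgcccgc
Cyp2c67: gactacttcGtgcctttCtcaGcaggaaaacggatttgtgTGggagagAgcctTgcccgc
Cyp2c68: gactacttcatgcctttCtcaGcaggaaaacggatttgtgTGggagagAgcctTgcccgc
Cyp2c37: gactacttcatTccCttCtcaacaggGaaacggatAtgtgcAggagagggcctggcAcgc
Cyp2c54: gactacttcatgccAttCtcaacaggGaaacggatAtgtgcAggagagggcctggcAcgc
Cyp2c50: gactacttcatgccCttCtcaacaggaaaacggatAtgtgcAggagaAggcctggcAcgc
Cyp2c70: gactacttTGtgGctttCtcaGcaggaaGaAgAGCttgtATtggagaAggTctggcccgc

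Cyp2c40, Cyp2c69 and Cyp2c67 were identical over these bases, whereas Cyp2c70 differed from Cyp2c29 at 14 of them. Over the whole coding sequence, 3 close sets appeared: Cyp2c38 and Cyp2c39 (94.2% identity, with Cyp2c29 at 89.1% and 89.5%), Cyp2c37, Cyp2c50 and Cyp2c54 (95.1% to 96.1%), and Cyp2c40, Cyp2c67, Cyp2c68 and Cyp2c69 (96.5% to 98.1%). Cyp2c70 reached at most 71.1% with any other Cyp2c gene of the table. The coding transcripts of the 15 Cyp2c rows were cut into windows of 50 bases and compared with each other. Of the windows of Cyp2c40, 99.9% matched another of these transcripts with at most 2 mismatches, as did 96.6% for Cyp2c67, 96.2% for Cyp2c68 and 91.8% for Cyp2c69. The share was 74.7% for Cyp2c37, 74.5% for Cyp2c50, 64.5% for Cyp2c54, 52.1% for Cyp2c39, 30.8% for Cyp2c38, 18.2% for Cyp2c29 and 0% for Cyp2c70. Windows that matched without any mismatch were fewer: 72.1% for Cyp2c40, 54.8% for Cyp2c69, 52.8% for Cyp2c67 and 43.3% for Cyp2c68. They were 30.7% for Cyp2c50, 30.1% for Cyp2c37, 25.7% for Cyp2c54, 11.4% for Cyp2c39, 7.45% for Cyp2c38 and 0.519% for Cyp2c29. The RPKM of Cyp2c40, Cyp2c67, Cyp2c68 and Cyp2c69 are therefore uncertain, and those of Cyp2c37, Cyp2c50 and Cyp2c54 may trade reads with each other. Those of Cyp2c29 and Cyp2c70 are the best separated of the members from the other rows compared. Cyp2c pseudogenes have no row and were not compared, among them the transcribed Cyp2c53-ps (chr19:39229254-39274985), which overlaps the span of Cyp2c29.

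In Con livers, Cyp2c29, which epoxidises arachidonic acid, was the most abundant member at 868 RPKM ± 71.9 (SD, n = 3). Cyp2c70, the enzyme that makes the muricholic bile acids of rodents, followed at 602 RPKM ± 14.7, and the ranges of these genes did not overlap. Cyp2c50 (179.9 RPKM ± 58.6) and Cyp2c54 (102.7 RPKM ± 53.7) came next with overlapping ranges. Cyp2c39 (25.1 RPKM ± 8.64), which hydroxylates retinoic acid, Cyp2c37 (20.3 RPKM ± 10.1) and Cyp2c38 (9.7 RPKM ± 5.68) were low and overlapped with their neighbours in this order, Cyp2c40 lay at 6.22 RPKM ± 1.36 within the range of Cyp2c38, and Cyp2c69 was at 0.05 RPKM ± 0.0557. In STZ livers the order was another one. Cyp2c37 (963 RPKM ± 740.2) stood beside Cyp2c29 (927 RPKM ± 226), then came Cyp2c50 (636 RPKM ± 202), Cyp2c39 (635 RPKM ± 266) and Cyp2c54 (385 RPKM ± 19.6), and these ranges overlapped from one gene to the next. Cyp2c70, second in Con, had a lower mean than these at 301 RPKM ± 61.1, but its range overlapped with those of Cyp2c37 and Cyp2c39.

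**Figure D1:**
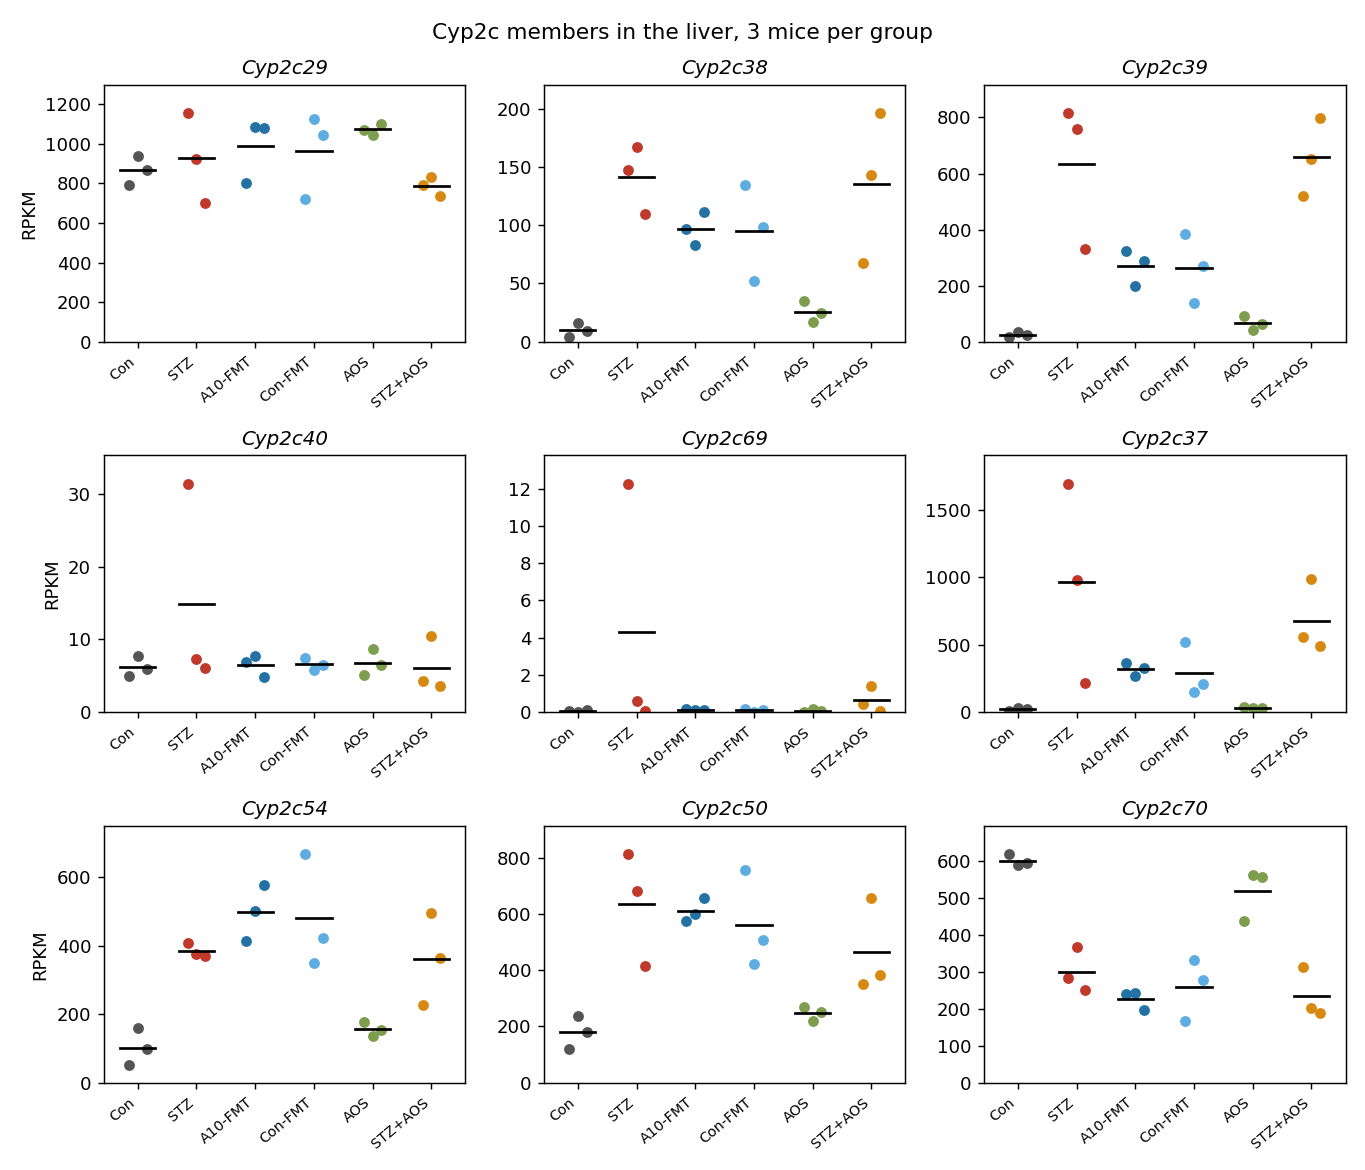
RPKM of the 9 Cyp2c members with a row in every liver, on an axis of its own from 0 for each gene; points are mice, black lines are group means of 3 mice. Cyp2c37, Cyp2c38, Cyp2c39, Cyp2c50 and Cyp2c54 lay higher in all 3 STZ mice than in all 3 Con mice and Cyp2c70 lay lower, while Cyp2c29 overlapped.

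The first comparison, STZ against Con, asks how livers of mice given the toxin differed from control livers. An effect of the toxin itself and an effect of the diabetes that follows it cannot be told apart in this design. The test was limma on log2(RPKM + 1), adjusted over 10602 genes, and 8 members passed the filter of 1 RPKM in at least 3 of 12 libraries. Of these 8 members, 5 rose (Cyp2c37, Cyp2c38, Cyp2c39, Cyp2c50 and Cyp2c54), 1 fell (Cyp2c70) and 2 were not called (Cyp2c29 and Cyp2c40). The background was high, since 38.5% of all tested genes were called, 33% as higher and 5.52% as lower. The median change was 1.93 on the log2 scale over the 8 members and 0.21 over all genes. This general shift of 0.21 depended on the scaling: with median-ratio scaling of the libraries it was -0.01, and 51.4% rather than 85.7% of called genes were higher, but the same 5 members rose and the same 1 fell. The members were chosen with earlier results of these data known. Their counts and median beside those of all genes are therefore a description and not a test of the set.

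Cyp2c37, which hydroxylates arachidonic acid, showed the largest change of the members. Its level was 10.3, 30.6 and 19.9 RPKM in Con mice 1, 2 and 3 and 1694, 981 and 214 RPKM in STZ mice 1, 2 and 3. Every STZ mouse was above every Con mouse, yet the STZ mice differed among themselves by more than the Con mice. The difference was 5.18 on the log2(RPKM + 1) scale (SE 0.68, limma adjusted p = 0.000574), or 36.3-fold on that scale. Without STZ mouse 3 it was 6.04 (66-fold), and without STZ mouse 1 it was 4.55 (23.5-fold).

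Cyp2c39 and Cyp2c38, neighbours on the chromosome and close in sequence, rose together. Cyp2c39 lay at 16.6, 33.9 and 24.7 RPKM in Con and at 814, 760.2 and 329.6 RPKM in STZ. Cyp2c38, another arachidonic acid epoxygenase, lay at 4.35, 15.7 and 9.09 RPKM in Con and at 147.6, 167.3 and 109.4 RPKM in STZ. The groups did not overlap for either gene, and the differences were 4.55 (SE 0.42, limma adjusted p = 0.00019) and 3.86 (SE 0.40, limma adjusted p = 0.000289) on the log2 scale. The non-overlap is itself common here, since 47.7% of tested genes had groups that did not overlap.

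Cyp2c50 and Cyp2c54, close relatives of Cyp2c37 that also act on arachidonic and linoleic acid, rose less and from a higher level. Cyp2c50 lay at 121.3, 238.5 and 180 RPKM in Con and at 812, 681 and 415 RPKM in STZ, a difference of 1.81 (SE 0.30, limma adjusted p = 0.00151). Cyp2c54 lay at 51.1, 158.3 and 98.7 RPKM in Con and at 407, 376.5 and 371 RPKM in STZ, a difference of 2.04 (SE 0.34, limma adjusted p = 0.00174). The STZ mice were close together for Cyp2c54 and spread for Cyp2c50.

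Cyp2c70 was the only tested member that fell. It lay at 618, 590.5 and 596 RPKM in Con and at 284, 369 and 249.96 RPKM in STZ, so that the Con mice were tight and above every STZ mouse. It decreased by 1.02 on the log2 scale (SE 0.23, limma adjusted p = 0.00638), to 0.494 times the Con level on that scale. Since no window of Cyp2c70 matched the transcript of another Cyp2c row, reads shared with those rows bear on this member least.

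Cyp2c29 overlapped between Con (794, 938 and 870.4 RPKM) and STZ (1154, 925 and 702 RPKM). The difference of 0.07 had a 95% interval of -0.42 to 0.56 and a limma adjusted p of 0.827, and its sign turned under median-ratio scaling and quantile normalization. Cyp2c40, which also hydroxylates arachidonic acid, was at 5.04, 7.7 and 5.92 RPKM in Con and at 31.4, 7.34 and 6.02 RPKM in STZ, so STZ mouse 1 stood far above the rest (difference 0.79, SE 0.44, limma adjusted p = 0.175). Cyp2c69 did not pass the filter. It was at 0.04, 0 and 0.11 RPKM in Con and at 12.3, 0.62 and 0.08 RPKM in STZ, and the high library was again STZ mouse 1. Reads of Cyp2c40 and Cyp2c69 may belong to Cyp2c67 or Cyp2c68 and the reverse.

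The STZ mice were not alike, and the spread followed other genes. STZ mouse 3 was the lowest of the 3 for Cyp2c37, Cyp2c38, Cyp2c39, Cyp2c50, Cyp2c54, Cyp2c69, Cyp2c70, Cyp2c29 and Cyp2c40, that is for each of the 9 members with a row, and so were 49.7% of all tested genes. In the same mouse, 14 of 15 tested genes known to be higher in male than in female liver were the highest of the 3 mice, against 24.5% of all tested genes, and 10 of 15 female-biased genes were the lowest. Mup20, a male-biased major urinary protein, was at 389 RPKM against 5.17 and 12 in STZ mice 1 and 2, and Elovl3, a fatty acid elongase, at 12 RPKM against 0.19 and 0.06. STZ mouse 1, the high library for Cyp2c40 and Cyp2c69, also had the most of the female-biased Cyp2a4, a steroid hydroxylase, at 1061 RPKM against 113.3 and 232. The part of these differences in the results was not tested. Without STZ mouse 3, Cyp2c40 was called too (1.20 on the log2 scale, limma adjusted p = 0.0391), so that 7 members were called where 47.4% of all tested genes were.

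Of the other Cyp2c genes, Cyp2c67, whose reads may be mixed with those of Cyp2c68, Cyp2c40 and Cyp2c69, fell. It was at 347, 432 and 376 RPKM in Con and at 76.4, 93.6 and 355 RPKM in STZ, where mouse 3 lay within the range of Con. Cyp2c67 decreased by 1.48 on the log2 scale (SE 0.43, limma adjusted p = 0.0211), but not past the threshold without STZ mouse 1 (adjusted p = 0.0765), without STZ mouse 2 (0.0856), without Con mouse 2 (0.0569) or without Con mouse 3 (0.0542), nor in a fit of these 2 groups alone (0.0738). Cyp2c68 lay at 60.2, 91.7 and 74.7 RPKM in Con and 122.6, 90.9 and 100.7 RPKM in STZ, with a difference of 0.48 (limma adjusted p = 0.0356) that was not called with median-ratio scaling (0.21, adjusted p = 0.312) or quantile normalization (0.19, adjusted p = 0.312). Cyp2c23, an arachidonic acid epoxygenase, was not called (0.36, limma adjusted p = 0.239). Cyp2c55 lay at 0.18 to 1.53 RPKM over the 18 libraries, and Cyp2c65 and Cyp2c66 at 0 to 0.05 RPKM.

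Together these shifts changed the make-up of the Cyp2c transcripts. The 15 Cyp2c rows summed to 2460 RPKM ± 308.9 in Con and 4527 RPKM ± 1324 in STZ. In Con, Cyp2c29 held 35.4% ± 1.51 of this sum, Cyp2c70 24.8% ± 3.69 and Cyp2c67 15.7% ± 0.339. In STZ the shares were 20.7% ± 1.30, 6.93% ± 1.76 and 4.86% ± 5.54. The share of Cyp2c37 was 0.798% ± 0.312 in Con and 19.1% ± 11.4 in STZ, and that of Cyp2c39 was 1% ± 0.225 and 13.6% ± 3.03. A share can fall because other genes rise: Cyp2c29 had a smaller share in STZ at a level that overlapped with Con. In AOS livers the sum was 2780 RPKM ± 62.3 with Cyp2c29 at 38.6% ± 0.326, and in STZ+AOS livers 3717 RPKM ± 705.4 with Cyp2c39 at 17.9% ± 3.72.

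**Figure D2:**
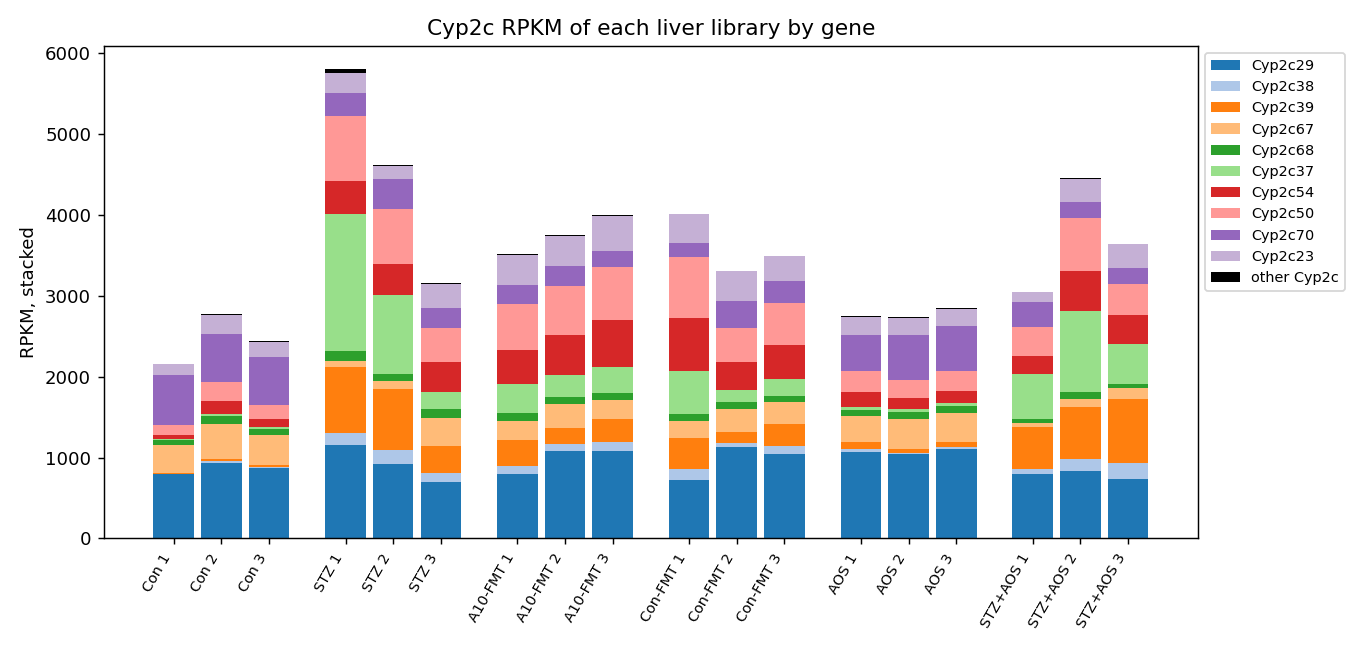
Stacked RPKM of the Cyp2c genes in each of the 18 liver libraries (3 mice per group), 1 colour per gene; genes that never passed 50 RPKM are pooled in black. Con and AOS bars (2160 to 2851 RPKM) consist mostly of Cyp2c29, Cyp2c70 and Cyp2c67, and every bar of a group given STZ holds a visible part of Cyp2c37 and Cyp2c39.

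The next comparisons, A10-FMT against STZ and Con-FMT against STZ, ask whether transplanted microbiota shifted the livers given STZ. Not one of the 8 members tested was called in either, at a background of 0.226% of genes called for A10-FMT and 0.00943% for Con-FMT. At an unadjusted p under 0.05 limma found 2212 and 2131 genes over the whole table. Both comparisons share the 3 STZ mice, so their values are given side by side.

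The member means that differed most from STZ were those of Cyp2c37 and Cyp2c39. Cyp2c37 lay at 362, 267 and 329 RPKM in A10-FMT and at 524, 146 and 210.0 RPKM in Con-FMT. These values overlapped with STZ only through STZ mouse 3, at 214 RPKM. The differences from STZ were -1.16 (95% interval -2.65 to 0.33, limma adjusted p = 0.352) for A10-FMT and -1.49 (-2.98 to 0.01, limma adjusted p = 0.25) for Con-FMT.

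Cyp2c39 lay at 323.5, 200.1 and 288 RPKM in A10-FMT, below every STZ mouse, and at 386, 136 and 272 RPKM in Con-FMT. The differences from STZ were -1.15 (95% interval -2.08 to -0.22, limma adjusted p = 0.17) and -1.27 (-2.21 to -0.34, limma adjusted p = 0.14). Groups that do not overlap were seen for 3 of 8 members (Cyp2c39, Cyp2c54 and Cyp2c70) and 21.5% of all genes when A10-FMT was set against STZ, and for 0 of 8 members and 17.7% of all genes when Con-FMT was.

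The outcome for these genes rested on STZ mouse 3. Without it, 2 members were called in each comparison. Cyp2c37 then was lower by -2.02 in A10-FMT (limma adjusted p = 0.0294) and by -2.35 in Con-FMT (adjusted p = 0.0154), and Cyp2c39 by -1.56 (adjusted p = 0.0287) and -1.69 (adjusted p = 0.0192). The background rose as well, to 12.7% of genes called for A10-FMT and 15.5% for Con-FMT. Cyp2c67 was called as higher than STZ in both when that mouse was left out (1.55 with adjusted p = 0.000667 and 1.57 with adjusted p = 0.000481), and Cyp2c23 in A10-FMT (0.96, adjusted p = 0.0257).

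The other members were not called in either comparison. Cyp2c38 lay at 97, 82.7 and 111.1 RPKM in A10-FMT and 134.3, 52.1 and 98.5 RPKM in Con-FMT, with differences of -0.53 (95% interval -1.40 to 0.34) and -0.65 (-1.52 to 0.22). For Cyp2c50, at 574 to 657 RPKM and 423 to 755 RPKM, they were -0.01 (-0.66 to 0.65) and -0.17 (-0.82 to 0.49). Cyp2c54 had a higher mean than STZ in both groups, at 415, 503 and 578 RPKM in A10-FMT and 667, 350.5 and 422 RPKM in Con-FMT, with differences of 0.36 (-0.40 to 1.12) and 0.26 (-0.49 to 1.02).

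Cyp2c70 stayed below every Con mouse. It lay at 239, 244 and 197 RPKM in A10-FMT, below every STZ mouse, and at 166, 333 and 278 RPKM in Con-FMT. The differences from STZ were -0.40 (95% interval -0.90 to 0.11, limma adjusted p = 0.347) and -0.25 (-0.76 to 0.25, limma adjusted p = 0.562). Cyp2c40 and Cyp2c69 lay at 4.86 to 7.77 RPKM and 0 to 0.18 RPKM in all 6 transplanted mice, against 5.04 to 7.7 RPKM and 0 to 0.11 RPKM in Con.

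Set against Con instead, both transplanted groups showed calls for most members. In A10-FMT against Con, 6 of 8 members were called (5 higher, 1 lower) at a background of 18.4% of genes, 15.9% as higher and 2.47% as lower. In Con-FMT against Con it was 6 of 8 (5 higher, 1 lower) at 19.4%, with 17.5% higher and 1.89% lower. The members were the same as in STZ against Con, and all these comparisons share the 3 Con mice. Cyp2c38 differed from Con by 3.33 (limma adjusted p = 0.000954) in A10-FMT and 3.21 (limma adjusted p = 0.00141) in Con-FMT, and Cyp2c39 by 3.41 (adjusted p = 0.00112) and 3.28 (adjusted p = 0.00176).

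Cyp2c37 differed from Con by 4.02 (limma adjusted p = 0.00446) in A10-FMT and by 3.70 (adjusted p = 0.00758) in Con-FMT. Cyp2c54 differed by 2.40 and 2.30, Cyp2c50 by 1.81 and 1.65, and Cyp2c70 by -1.41 and -1.27 (limma adjusted p between 0.00221 and 0.00719). Among the other Cyp2c genes, Cyp2c23 was higher than Con in A10-FMT (369, 382.5 and 433 RPKM against 131, 239 and 186 in Con, 1.12 with limma adjusted p = 0.0117) and in Con-FMT (354, 363 and 303 RPKM, 0.91 with adjusted p = 0.0247). The call for Con-FMT was lost with median-ratio scaling (0.68, adjusted p = 0.103) and with quantile normalization (0.66, adjusted p = 0.0998). It was lost as well without Con-FMT mouse 1 (adjusted p = 0.0861) or 2 (0.0503) or Con mouse 1 (0.097) or 3 (0.0673), and that for A10-FMT without A10-FMT mouse 3 (0.0505) or Con mouse 1 (0.0505).

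The kinds of microbiota were compared directly in A10-FMT against Con-FMT, where 0 of 8 members and 0 genes in all (0% of those tested) were called by limma, with 303 genes at an unadjusted p under 0.05. The member differences ran from -0.14 for Cyp2c70 to 0.33 for Cyp2c37. Their 95% intervals were wide, -1.17 to 1.82 for Cyp2c37 and -0.65 to 0.36 for Cyp2c70, so that a difference of 2-fold between the transplants lies inside the interval for Cyp2c37 but outside it for Cyp2c70. The intervals for Cyp2c39 (-0.80 to 1.06) and Cyp2c54 (-0.66 to 0.85) were between these.

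**Figure D3:**
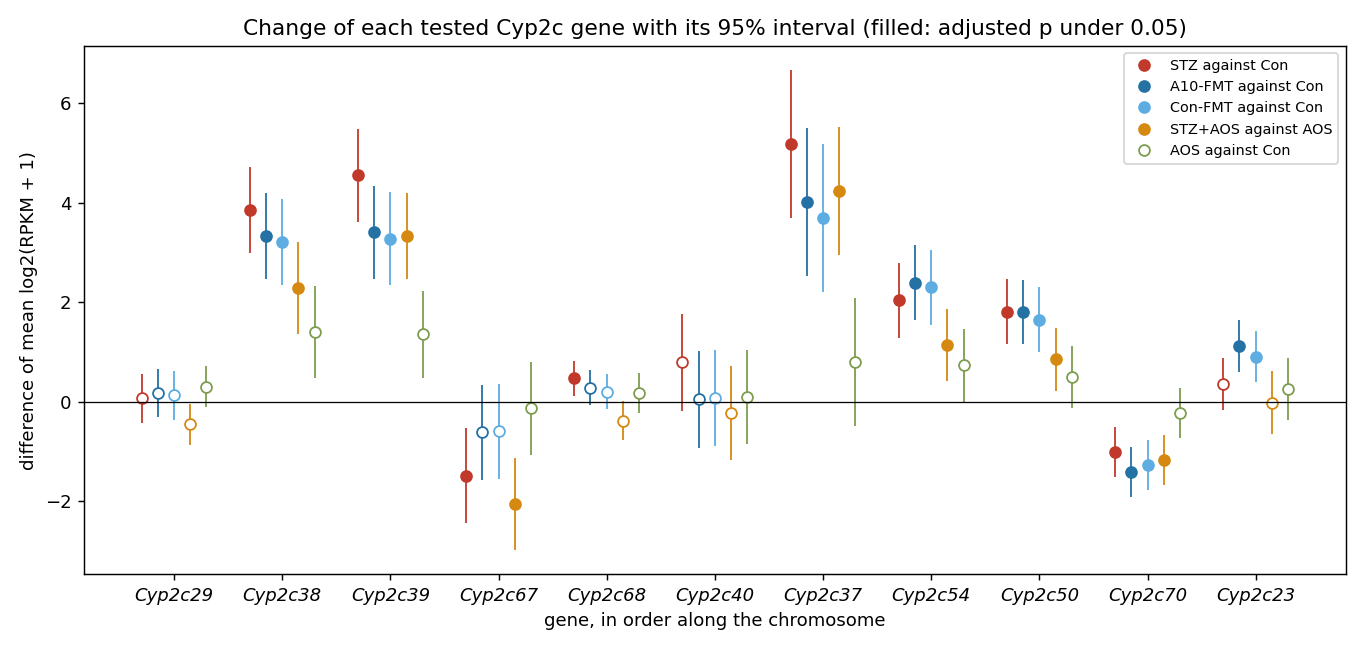
Difference of mean log2(RPKM + 1) with its 95% interval for the tested Cyp2c genes, ordered along the chromosome, in 5 comparisons; filled points passed an adjusted p of 0.05. Cyp2c38, Cyp2c39, Cyp2c37, Cyp2c54 and Cyp2c50 are above 0 and Cyp2c70 below 0 in the 4 comparisons of a group given STZ with a group without it, and no point of AOS against Con is filled.

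AOS against Con asks what the oligosaccharide did in mice without STZ. Of the 8 members, 0 were called in the fit of all 18 libraries, and limma called 1 of 10822 genes, or 0.00924% (781 at an unadjusted p under 0.05). Cyp2c38 and Cyp2c39 had the highest differences. Cyp2c38 lay at 35.1, 17.2 and 24.2 RPKM in AOS (1.40, 95% interval 0.48 to 2.33, limma adjusted p = 0.54), and Cyp2c39 at 93, 43.2 and 63 RPKM (1.36, 0.49 to 2.23, limma adjusted p = 0.524). All AOS mice were above all Con mice for both genes, as 24.4% of all genes had AOS and Con groups that did not overlap. Cyp2c37 (30 to 36.6 RPKM), Cyp2c50 (219.8 to 269.9 RPKM), Cyp2c54 (136.7 to 177.9 RPKM) and Cyp2c40 (5.18 to 8.67 RPKM) overlapped with Con, while Cyp2c29 (1046 to 1103 RPKM) lay above and Cyp2c70 (438 to 564 RPKM) below it without being called.

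STZ+AOS against STZ asks what the oligosaccharide did in mice given the toxin. Here limma called 0 of 8 members and 0 genes (0% of 10822, with 657 at an unadjusted p under 0.05). The member differences ran from -0.92 for Cyp2c40 (95% interval -1.87 to 0.03) to 0.14 for Cyp2c39 (-0.73 to 1.01). Cyp2c37 lay at 554, 992 and 488.5 RPKM, Cyp2c38 at 67.7, 143.5 and 196 RPKM, and Cyp2c39 at 520.1, 653 and 799 RPKM. Cyp2c69 was at 0.43, 1.39 and 0.08 RPKM.

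In STZ+AOS against AOS, 6 of 8 members were called, 5 higher and 1 lower, at a background of 37.9% of genes, 31.8% as higher and 6.11% as lower. These are mice other than those of STZ against Con, and the members were the same. Cyp2c37 differed by 4.25 (limma adjusted p = 0.000291), Cyp2c39 by 3.33 (adjusted p = 9.7e-05), Cyp2c38 by 2.29 (adjusted p = 0.00137) and Cyp2c70, at 312, 203 and 189 RPKM in STZ+AOS, by -1.17 (adjusted p = 0.00198).

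Cyp2c54 (225.8, 497 and 365 RPKM in STZ+AOS, 1.14, limma adjusted p = 0.0176) and Cyp2c50 (352, 658 and 382 RPKM, 0.86, adjusted p = 0.0333) were the less stable calls. Neither was called without STZ+AOS mouse 2 (adjusted p = 0.0711 and 0.142) or without AOS mouse 2 (0.0637 and 0.103), nor with median-ratio scaling (0.0525 and 0.105), and Cyp2c50 was not called without AOS mouse 1 (0.0519) or 3 (0.0722). Cyp2c29 lay at 791, 835 and 736 RPKM in STZ+AOS, below every AOS mouse, with a difference of -0.45 (limma adjusted p = 0.0803). That difference was -0.69 with median-ratio scaling (adjusted p = 0.0181), and without STZ mouse 3, which only enters the common estimate of spread, its adjusted p was 0.046.

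Whether STZ altered the response to AOS was tested as the difference between STZ+AOS against STZ and AOS against Con. No member was called (0 of 8), nor any gene by limma (0% of 10822, with 584 at an unadjusted p under 0.05). The member differences were all below 0 and ran from -1.57 for Cyp2c38 (95% interval -2.88 to -0.26, limma adjusted p = 0.856) to -0.15 for Cyp2c70 (-0.86 to 0.56, adjusted p = 0.98). Cyp2c67 in STZ+AOS lay at 46.5, 94 and 132 RPKM, below every AOS mouse (-2.06, limma adjusted p = 0.00261), with the same doubt about its reads. Cyp2c55 lay at 0.48 to 0.62 RPKM in STZ+AOS and 1.21 to 1.53 RPKM in AOS, the only group whose 3 libraries all reached 1 RPKM, so it passed the filter through the group where it was high and its test is not given.

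Members that moved together are shown here by the bases around their transcript starts, from 250 before to 50 after, taken from RefSeq on GRCm38.p6. Of the 9 members with a row, 8 had such an entry, all but Cyp2c54. Motifs of factors known to act on liver genes were searched: TGTTTAC (forkhead), CAAAGTCCA (HNF4), TTCNNNGAA (STAT) and AGGTCA (nuclear receptors) on both strands, and TATAAA on the sense strand. Capitals mark these motifs. The first pair is Cyp2c38 (chr19:39463026-39463325, minus strand) and Cyp2c39 (chr19:39510572-39510871, plus strand).
Cyp2c38: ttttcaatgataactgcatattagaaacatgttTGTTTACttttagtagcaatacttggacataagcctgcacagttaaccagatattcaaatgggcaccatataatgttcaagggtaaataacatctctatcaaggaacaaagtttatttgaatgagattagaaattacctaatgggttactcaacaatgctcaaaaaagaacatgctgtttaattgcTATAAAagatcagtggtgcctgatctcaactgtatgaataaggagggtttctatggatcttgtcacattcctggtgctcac
Cyp2c39: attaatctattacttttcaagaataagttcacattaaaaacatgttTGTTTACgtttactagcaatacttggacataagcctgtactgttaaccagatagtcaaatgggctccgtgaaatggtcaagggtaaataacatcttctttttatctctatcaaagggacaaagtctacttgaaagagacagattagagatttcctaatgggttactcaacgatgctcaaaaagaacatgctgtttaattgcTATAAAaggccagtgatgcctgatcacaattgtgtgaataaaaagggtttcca

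These windows were 88.2% identical over 271 aligned bases, and each held TGTTTAC, which occurs in 3.65% of 32851 promoters of the same length, and TATAAA, which occurs in 8.32%. RefSeq holds another Cyp2c39 window (chr19:39347096-39347395, plus strand), 86.3% identical to that of Cyp2c38, with TGTTTAC and AGGTCA but without TATAAA. The second pair is Cyp2c37 (chr19:39992174-39992473, plus strand) and Cyp2c50 (chr19:40089429-40089728, plus strand), which were 90.1% identical over 292 bases and held none of these motifs.
Cyp2c37: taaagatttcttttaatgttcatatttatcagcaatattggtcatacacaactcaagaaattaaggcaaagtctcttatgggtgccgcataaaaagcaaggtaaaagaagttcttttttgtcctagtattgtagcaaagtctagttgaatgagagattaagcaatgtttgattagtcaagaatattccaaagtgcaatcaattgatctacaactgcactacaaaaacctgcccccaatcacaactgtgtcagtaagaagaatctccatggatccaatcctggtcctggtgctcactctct
Cyp2c50: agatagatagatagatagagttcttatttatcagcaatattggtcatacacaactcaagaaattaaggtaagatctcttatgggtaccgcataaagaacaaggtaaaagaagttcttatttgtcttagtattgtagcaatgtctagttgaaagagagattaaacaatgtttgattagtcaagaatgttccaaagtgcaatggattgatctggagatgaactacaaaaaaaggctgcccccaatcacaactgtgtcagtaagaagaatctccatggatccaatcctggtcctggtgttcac

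Cyp2c70, the member that fell, had its own window (chr19:40187237-40187536, minus strand).
Cyp2c70: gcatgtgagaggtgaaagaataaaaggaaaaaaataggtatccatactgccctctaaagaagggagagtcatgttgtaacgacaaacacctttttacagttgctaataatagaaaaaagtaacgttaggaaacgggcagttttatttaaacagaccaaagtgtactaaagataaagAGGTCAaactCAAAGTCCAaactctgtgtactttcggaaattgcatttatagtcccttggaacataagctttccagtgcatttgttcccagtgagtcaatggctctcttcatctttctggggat

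Here AGGTCA (16.3% of promoters) and CAAAGTCCA (0.475% of promoters) lay a few bases apart. CAAAGTCCA was also found at Cyp2c40 and Cyp2c69, as it was at Cyp2c65, Cyp2c67 and Cyp2c68. Cyp2c29 held AGGTCA and TATAAA. TTCNNNGAA, found in 8.3% of promoters, was not among the letters of any Cyp2c window. The reference is the C57BL/6J strain, whereas the mice were ICR, and a match of letters says nothing of binding.

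Over the 18 libraries, Pearson's r of log2(RPKM + 1) was 0.84 to 0.97 between the 10 pairs of rising members. It was 0.97 for Cyp2c37 with Cyp2c39, 0.97 for Cyp2c38 with Cyp2c39, 0.96 for Cyp2c50 with Cyp2c54 and 0.92 for Cyp2c37 with Cyp2c50, and it was -0.82 to -0.90 for Cyp2c70 with these 5 genes. Since the libraries fall into groups, such values carry the group differences. Within groups, after the group means were taken out, r was 0.80, 0.85, 0.83 and 0.91 for the same pairs, and lower for others, such as 0.58 for Cyp2c37 with Cyp2c38, 0.58 for Cyp2c37 with Cyp2c54 and 0.61 for Cyp2c39 with Cyp2c54. For Cyp2c70 with the 5 genes it was between -0.23 and -0.62. Cyp2c50 followed Cyp2c37, its closest relative in sequence, more closely within groups than Cyp2c39 did, and these genes may share reads as well as libraries.

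**Figure D4:**
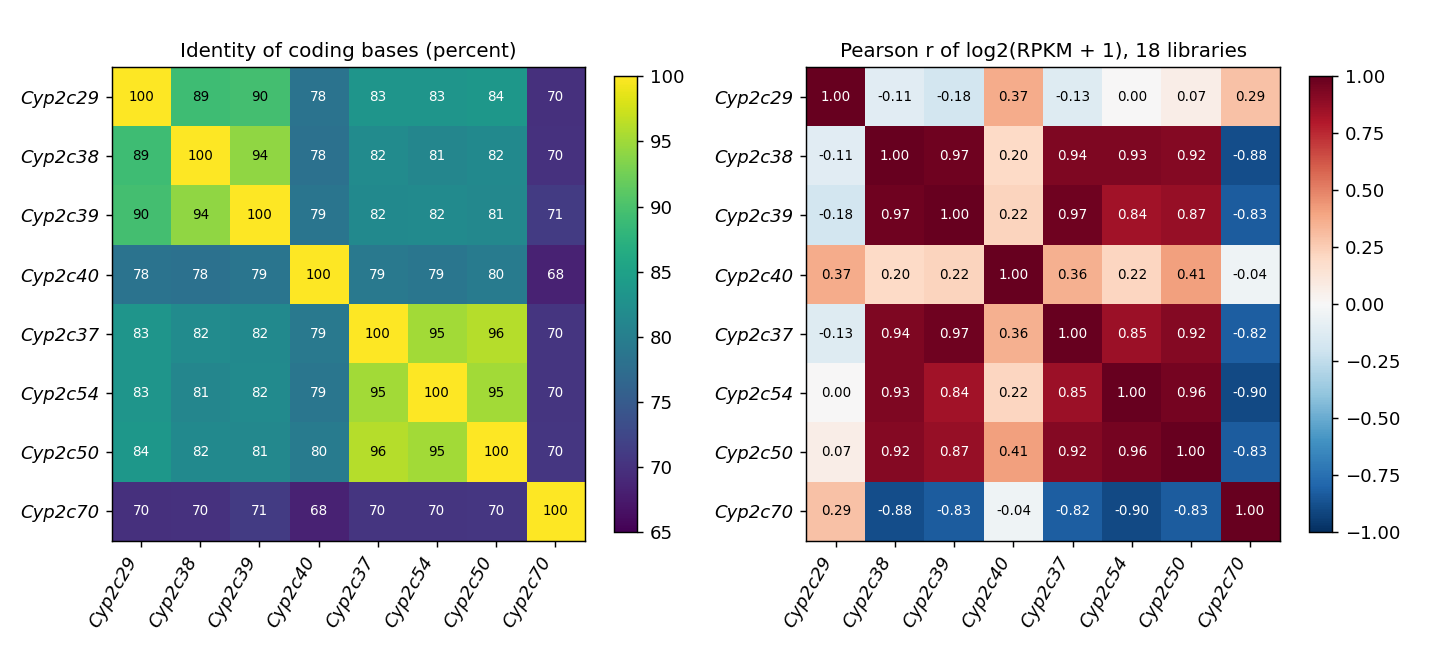
Left, percent identity of the coding bases of each pair of tested members; right, Pearson's r of log2(RPKM + 1) of the same pairs over 18 libraries, both ordered along the chromosome. Cyp2c37, Cyp2c54 and Cyp2c50 form a block of 95% identity or more and also correlate with Cyp2c38 and Cyp2c39 (r of 0.84 to 0.97), with which they share 81% to 82%. Cyp2c70 is least alike in sequence and runs opposite to these genes, but not to Cyp2c29 (r = 0.29) or Cyp2c40 (r = -0.04).

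The genes outside the members whose pattern was most like each of them were taken as the 2 with the highest r over the 18 libraries among 10821 others. For Cyp2c37 these were Bche, which encodes butyrylcholinesterase (r = 0.99), and Slco1a4, an organic anion transporter (0.98, 5.59 RPKM ± 2.83 in Con and 117.3 RPKM ± 45.5 in STZ). For Cyp2c38 they were Etnppl, an ethanolamine phosphate lyase (0.98), and Cps1 of the urea cycle (0.98), and for Cyp2c39 D17Wsu92e (0.99) and Cyp4a14, a fatty acid hydroxylase (0.99). Cyp2c50 was most like Upb1 (0.98) and Rdh16 (0.97), and Cyp2c54 most like Dpyd (0.96), where Dpyd and Upb1 belong to pyrimidine breakdown and Rdh16 is a retinol dehydrogenase. Cyp2c70 was most like Cfb, complement factor B (0.91), and Inhba, an activin subunit (0.90), which lay at 4.11 RPKM ± 0.353 in Con and 1.39 RPKM ± 0.39 in STZ. Cyp2c40 followed Eln (0.87) and Cyp3a16 (0.86), but Cyp2c40 stood far above the other libraries only in STZ mouse 1 (31.4 RPKM). Both of these genes were low. Eln lay at 0.6867 RPKM ± 0.1079 in Con and 1.253 RPKM ± 0.5563 in STZ. Cyp3a16 lay at 0 RPKM in Con and 11.23 RPKM ± 18.34 in STZ. How far these r values rest on that library was not tested. Cyp2c29 followed only loosely Dnase2a (0.77) and Alad (0.74). Each r is over libraries shared by both genes.

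The genes that work with the Cyp2c enzymes or act on them were then read in STZ against Con, by the count of called genes beside the 38.5% of all genes. These lists too were chosen with earlier results of these data known, so their counts and medians describe the lists and do not test them. Of 6 partners that hand electrons to P450 enzymes, 2 rose and 2 fell (1 and 2 with median-ratio scaling). Por, the P450 reductase, rose by 3.11 (limma adjusted p = 0.000342), from 40.7 RPKM ± 3.0 in Con to 395 RPKM ± 187.6 in STZ, where mouse 3 was again the lowest at 187.4 RPKM. The others were small: Cyb5a (0.59, adjusted p = 0.0365), Cyb5r3 (-0.35, 0.0341) and Cyb5b (-0.26, 0.0434), and without STZ mouse 3 only 2 partners were called.

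Of 20 receptors and factors that act on Cyp2c genes, 9 rose and 0 fell (6 and 1 with median-ratio scaling), with a median change of 0.37 against 0.21 over all genes. Nfe2l2, the factor NRF2 of oxidative stress, rose by 0.77 (limma adjusted p = 0.000831) and its inhibitor Keap1 by 0.41 (adjusted p = 0.00228). Hnf4a rose by 0.75 (adjusted p = 0.00102), and Nr1i2, which encodes PXR, by 0.92 (adjusted p = 0.00201), from 22.7 RPKM ± 2.96 to 44.4 RPKM ± 9.62. Nr1i3, which encodes CAR, rose by 1.48 (limma adjusted p = 0.00465). In STZ+AOS against AOS it was not called (0.66, adjusted p = 0.12). Keap1 was not called in STZ against Con with median-ratio scaling (0.16, adjusted p = 0.103).

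Of 16 tested genes, outside the members, that are known as targets of CAR and PXR, 13 rose and 1 fell (10 and 1 with median-ratio scaling), with a median of 1.49. Cyp2b10, the classical CAR target, rose by 3.84 (limma adjusted p = 4.95e-05), from 1.2 RPKM ± 0.504 to 30.4 RPKM ± 7.55. The glutathione transferase Gsta2 rose by 2.86 (adjusted p = 0.000394), and the export pumps Abcc2 and Abcc3 by 1.25 (adjusted p = 0.00047) and 1.74 (adjusted p = 0.000518). Cyp2b10 was still 3.34 above Con in A10-FMT (limma adjusted p = 0.000163) and 3.21 in Con-FMT (adjusted p = 0.000198).

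Genes that differ between the sexes in liver had the largest median changes of the lists read. Of 15 tested female-biased genes 13 rose and 0 fell (11 and 0 with median-ratio scaling), with a median of 4.33, and of 15 male-biased genes 0 rose and 13 fell, with a median of -3.68. Without STZ mouse 3 the counts were 13 and 13 as well. Cyp2a4 rose by 6.55 (limma adjusted p = 0.000546), Cyp2b9 by 5.71 (adjusted p = 0.000547), the steroid hydroxylase Cyp17a1 by 5.21 (adjusted p = 0.00167) and the thioesterase Acot3 by 4.52 (adjusted p = 0.0018).

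Among the male-biased genes, Elovl3 (225.5 RPKM ± 15.4 in Con and 4.09 RPKM ± 6.87 in STZ) changed by -6.47 (limma adjusted p = 0.00084), the complement gene C6 by -3.68 (adjusted p = 0.00124), Mup20 by -6.98 (adjusted p = 0.00214) and the steroid dehydrogenase gene Hsd3b5 by -6.31 (adjusted p = 0.00256). Fewer genes of these lists were called with transplanted microbiota. In A10-FMT against Con 7 of 15 female-biased genes were higher and 4 of 15 male-biased genes lower. Of all tested genes, 15.9% were called as higher and 2.47% as lower there. In Con-FMT against Con the counts were 3 and 6, where 17.5% of all tested genes were called as higher and 1.89% as lower. Whether these counts differ from those of STZ was not tested. When either transplanted group was set against STZ, 0 genes of these lists were called.

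In the growth hormone axis 3 of 10 genes rose and 3 fell (2 and 4 with median-ratio scaling). The growth hormone receptor gene Ghr changed by -0.98 (limma adjusted p = 0.0053), Igfals, which encodes a binding partner of the hormone's mediator Igf1, by -1.20 (adjusted p = 0.00368) and Stat5a by -0.69 (adjusted p = 0.0064), while Socs2, an inhibitor of the receptor's signal, rose by 1.47 (adjusted p = 0.00784). Stat5b was lower in A10-FMT than in STZ (-0.70, limma adjusted p = 0.0353).

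The enzymes that share substrates with the members were mixed. Of 18 tested genes of arachidonic acid metabolism 4 rose and 4 fell (4 and 7 with median-ratio scaling). The fatty acid hydroxylase gene Cyp4a10 rose by 8.31 (limma adjusted p = 1.88e-05), the microsomal epoxide hydrolase Ephx1 by 1.20 (adjusted p = 0.000567) and Cyp4f15 by 0.84 (adjusted p = 0.00494). Cyp4a14, another fatty acid hydroxylase, lay at 0.44 RPKM ± 0.208 in Con and 802 RPKM ± 358.2 in STZ. It is counted among those that rose, but it passed the filter only through groups given STZ, so its test is not given. Of 14 genes of bile acid synthesis, the pathway of Cyp2c70, 4 rose and 4 fell (2 and 5 with median-ratio scaling): Akr1d1 rose by 1.26 (adjusted p = 0.00155), Slc27a5 by 0.75 (adjusted p = 0.00361) and Hsd17b4 by 0.48 (adjusted p = 0.00791, not called with median-ratio scaling at 0.144), and Cyp7b1 decreased by 2.77 (adjusted p = 0.00454).

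Of 13 retinoid genes, which share substrates with Cyp2c39, 5 rose and 3 fell: Rdh16 by 2.04 (limma adjusted p = 0.00102), Cyp26b1, which clears retinoic acid, by 1.33 (adjusted p = 0.00579), the carrier Rbp4 by 1.21 (adjusted p = 0.00581) and the receptor Rarb by 0.86 (adjusted p = 0.00269) were among those that rose. Of 21 tested genes of other Cyp2 subfamilies, 10 rose and 5 fell, among the former Cyp2a5 by 5.20 (adjusted p = 0.000478), a coumarin hydroxylase gene.

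Cyp2c genes are expressed unevenly along the liver lobule, so genes of its zones were read as well. Of 14 periportal genes 11 rose and 1 fell (8 and 2 with median-ratio scaling), with a median of 1.05: Pck1 of gluconeogenesis rose by 2.76 (limma adjusted p = 0.000292), Gls2 by 1.52 (adjusted p = 0.000471), Cps1 by 1.37 (adjusted p = 0.000512) and Aldh1b1 by 1.37 (adjusted p = 0.000818). Of 15 pericentral genes 8 rose and 1 fell (3 and 3 with median-ratio scaling), with a median of 0.43. Oat, of ornithine breakdown, rose by 3.39 (adjusted p = 0.00019), Aldh3a2 by 2.02 (adjusted p = 0.00047) and the ammonium transporter gene Rhbg by 1.09 (adjusted p = 0.00509), and Rgn decreased by 0.75 (adjusted p = 0.00802).

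The same lists were read in STZ+AOS against AOS, which uses other mice, at the background of 37.9% of genes. Of 17 female-biased genes 13 were higher and 0 lower, of 15 male-biased genes 0 and 13, and of 17 targets of CAR and PXR 13 and 1. The longer lists hold genes that passed the filter only in the fit of 18 libraries. Cyp3a16, tested only there, lay at 0 RPKM in Con and AOS and so passed through groups given STZ. It was not among those called. Cyp2b10 differed by 4.69 (limma adjusted p = 2.93e-05). Sds, a periportal gene of serine breakdown, was higher at 494, 389 and 334 RPKM in STZ+AOS against 153, 80.8 and 96.5 RPKM in AOS (1.91, adjusted p = 0.000223). Hsd3b7, of bile acid synthesis like Cyp2c70, was lower at 120.2, 166.8 and 149.5 RPKM against 283, 313 and 289 RPKM (-1.03, adjusted p = 0.000944).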

How the data were processed

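The authors deposited RPKM, 1 value per gene and liver library. The submitters' processing notes name Bowtie 0.12.2 and mm10, whereas the study's methods name SOAPaligner with up to 2 mismatches; which made these values, and how reads matching several genes were assigned, was not settled. Reads per library are unknown. All 18 columns carry sample names. Genes reaching 1 RPKM in 3 or more fitted libraries were tested as log2(RPKM + 1) with limma 3.58.1 in R 4.3.3 (group means, trend, Benjamini-Hochberg; called at an adjusted p under 0.05), on 12 libraries of 4 groups (10602 genes) or, for comparisons with AOS, on all 18 (10822 genes); a fold change on this scale understates low genes. The procedure was tested on simulated data. Members and lists were chosen with earlier results of these data known. Named were every Cyp2c gene, per member the 2 most correlated genes, and per list the up to 4 genes of lowest adjusted p for STZ against Con and up to 2 for other comparisons. Stat5b, Nr1i3, the endothelial markers and the mice singled out were added after their values were seen. Positions and transcripts came from GENCODE M21 (GRCm38), promoters from RefSeq (GRCm38.p6); alignments used Biopython 1.88. Of 15 pairs of groups, all same-numbered mice deviated together (r of 0.1206 or more) in 1, A10-FMT with Con-FMT. The labels and the methods name no pairing. The differences and intervals given for A10-FMT against Con-FMT come from the fit without a replicate block. A fit with the labels' numbers as a block, considered after this check, also called 0 members. DEGseq needs counts and was not run. Some genes that the naming rule picks are not reported here.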

Additional observations from a re-analysis of the deposited data

How the results depend on the processing

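Alternatives were median-ratio scaling, quantile normalization, the low filter dropped or made to hold for every library, another pseudocount (0.1), limma without trend, other sets of groups in the fit, a replicate block and leaving out each mouse. Of 1840 member values under them, 1824 kept their side of the threshold, 7 gained a call, 9 lost one and 0 called values changed sign; 52 changed sign while called in neither setting. Leaving out mice gave 6 to 7 members called in STZ against Con, 0 to 2 for A10-FMT and 0 to 2 for Con-FMT when set against STZ (2 in each without STZ mouse 3, 0 without any other mouse) and 4 to 7 in STZ+AOS against AOS, where other settings gave 5 to 6. With no filter, Cyp2c50 lost its call in STZ+AOS against AOS (adjusted p = 0.0584). The other counts of members were the same under every alternative run. Over all genes, median-ratio scaling gave 2893 calls for STZ, 1164 for A10-FMT (55.1% higher) and 874 for Con-FMT (55.8% higher), each set against Con, 2654 for STZ+AOS set against AOS (49.9% higher), and 95 for A10-FMT and 73 for Con-FMT, each set against STZ. Fits of the compared groups alone called 2651 genes for STZ, 3355 for A10-FMT and 41 for AOS, each set against Con, and 2483 for STZ+AOS set against AOS (4087, 1953, 1 and 4102 in the fits reported). Leaving out a mouse gave as few as 2562 calls for STZ, 547 for A10-FMT and 603 for Con-FMT, each set against Con. Of 45 pairs of same-numbered mice from different groups, 16 deviated together (r over 0.1), and the median r was 0.03. The numbers were not taken as a pairing in the fits reported, and the replicate block was run only as an alternative. With the block the member counts were 6 for STZ, A10-FMT and Con-FMT set against Con and for STZ+AOS set against AOS. They were 0 in the other 6 comparisons, and 3714 genes were called for STZ against Con. Groups of 3, unknown read depth and near-identical sequences limit these results, and the counts of list genes under each setting were added after seeing the data.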
